A study of Mus musculus with 16 samples.

Results

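The genes described here set the electrical excitability, calcium release and water permeability of the skeletal muscle fibre, and comprised Kcnc1, Kcnj2, Kcnn3, Scn4a, Clcn1, Cacna1s, Ryr1, Lynx1 and Aqp4. Every array probe whose symbol in the deposited table equalled 1 of these 9 names was taken. That gave 14 probes for 8 genes, out of 25697 probes for 18117 genes on the array. No probe carried the symbol Cacna1s or its Entrez number. Of the 14 probes, 12 probes for 7 genes had a detection p-value under 0.05 on at least 3 arrays and were kept, as were 14763 probes in all. The genes were chosen by measured values: the list was drawn up around the lower Kcnc1, Lynx1 and Aqp4 levels of these same arrays relative to Sham+Saline. The members' differences from Sham+Saline, and their surgery by injection interaction, are therefore given as descriptions with no p-value. Calls of member probes in these contrasts, and their numbers, are descriptions too.

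RNA of muscle from female mice, named hamstring in the series title and whole hindlimb in the protocol, was taken 2 days after surgery and hybridised to 16 single-colour bead arrays, 4 in each of 4 groups. SCI+CDTX mice had a spinal cord injury between thoracic vertebrae 12 and 13 and received cardiotoxin, a myotoxic snake venom peptide, in the muscle, and the series design names this as the only condition in which heterotopic bone forms. SCI+Saline mice had the cord injury with saline in the muscle, Sham+CDTX mice had sham surgery with cardiotoxin, and Sham+Saline mice had sham surgery with saline. All 4 groups thus shared an operation and an injection; strain and age are not given in the sources used here. SCI+CDTX array 2 was left out of the submitters' final analysis and is left out here, so n = 3 there and n = 4 elsewhere. The labels number arrays within a group and do not say whether each is a separate mouse, so p-values measure only the spread between these samples, which may be technical.

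A muscle fibre fires when voltage-gated sodium channels open, recovers as voltage-gated potassium channels open, and is held near rest by chloride and inward rectifier potassium channels. The action potential runs down the transverse tubules, where the voltage sensor Cacna1s opens the calcium release channel Ryr1 of the sarcoplasmic reticulum and the fibre contracts. Mutations in some of these genes cause myotonia, periodic paralysis and malignant hyperthermia. Loss of the nerve is known to remodel this set, and Kcnn3, a small-conductance calcium-activated potassium channel, appears in fibres after denervation.

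The arrays differed in ways that touch every value given here. All arrays of SCI groups lay on 1 slide and all Sham arrays on the other, so slide and surgery cannot be told apart, whereas each cardiotoxin effect lies within a slide. Mean raw intensity was 230 to 277 in Sham+Saline and 320 to 373 elsewhere, and 11114 to 13694 probes were detected per array. An array score was built from the differences between the 2 brightest kept probes of 2779 genes, leaving the members out. This score, the first principal component with 33.1% of the variance, was 0.35 to 0.39 in Sham+CDTX, -0.27 to -0.07 in the 11 other arrays kept and 0.28 in the excluded SCI+CDTX array 2. In whole muscle, fewer fibres and less RNA per fibre cannot be told apart.

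Kcnc1 encodes a fast voltage-gated potassium channel that ends action potentials. Its kept probe, ILMN_2717814 on chromosome 7 (band 7qB4), begins at base 6519 of the listed transcript and was detected on all 16 arrays. The log2 levels, each the log2 of a quantile-normalised intensity, were 9.84, 9.52, 9.5 and 9.29 in Sham+Saline arrays 1 to 4. They were 6.44, 6.61, 6.89 and 6.91 in Sham+CDTX, 6.64, 5.68, 6.64 and 6.24 in SCI+Saline, and 5.87, 5.47 and 6.07 in SCI+CDTX arrays 1, 3 and 4. Sham+Saline stood above every other array, while Sham+CDTX overlapped SCI+Saline and SCI+Saline overlapped SCI+CDTX. The gap was as plain before normalisation, at raw intensities of 500.5 to 663.7 in Sham+Saline against 126.8 to 245.2 in the other kept arrays. Relative to Sham+Saline the log2 difference was -3.24 in SCI+Saline (9.42-fold lower), -2.82 in Sham+CDTX (7.09-fold) and -3.74 in SCI+CDTX (13.3-fold). Each single treatment thus carried most of the log2 difference seen with both together, and the interaction was 2.32 on the log2 scale. The 2 single falls, if added, would pass below the levels of undetected probes, such as Kcnn3 ILMN_2612915 with a mean of 4.36. The positive sign of this interaction was therefore fixed by the floor of the scale. SCI+CDTX lay -0.5 from SCI+Saline and -0.91 from Sham+CDTX. With the array score as a covariate over 16 arrays, the Sham+CDTX difference from Sham+Saline was -1.72, the SCI+CDTX difference from Sham+CDTX was -1.73 and the interaction was 1.4. A further probe, ILMN_1239595 at base 1576, was detected on none of the 16 arrays, with raw intensities of 89.2 to 104.5.

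**Figure D1:**
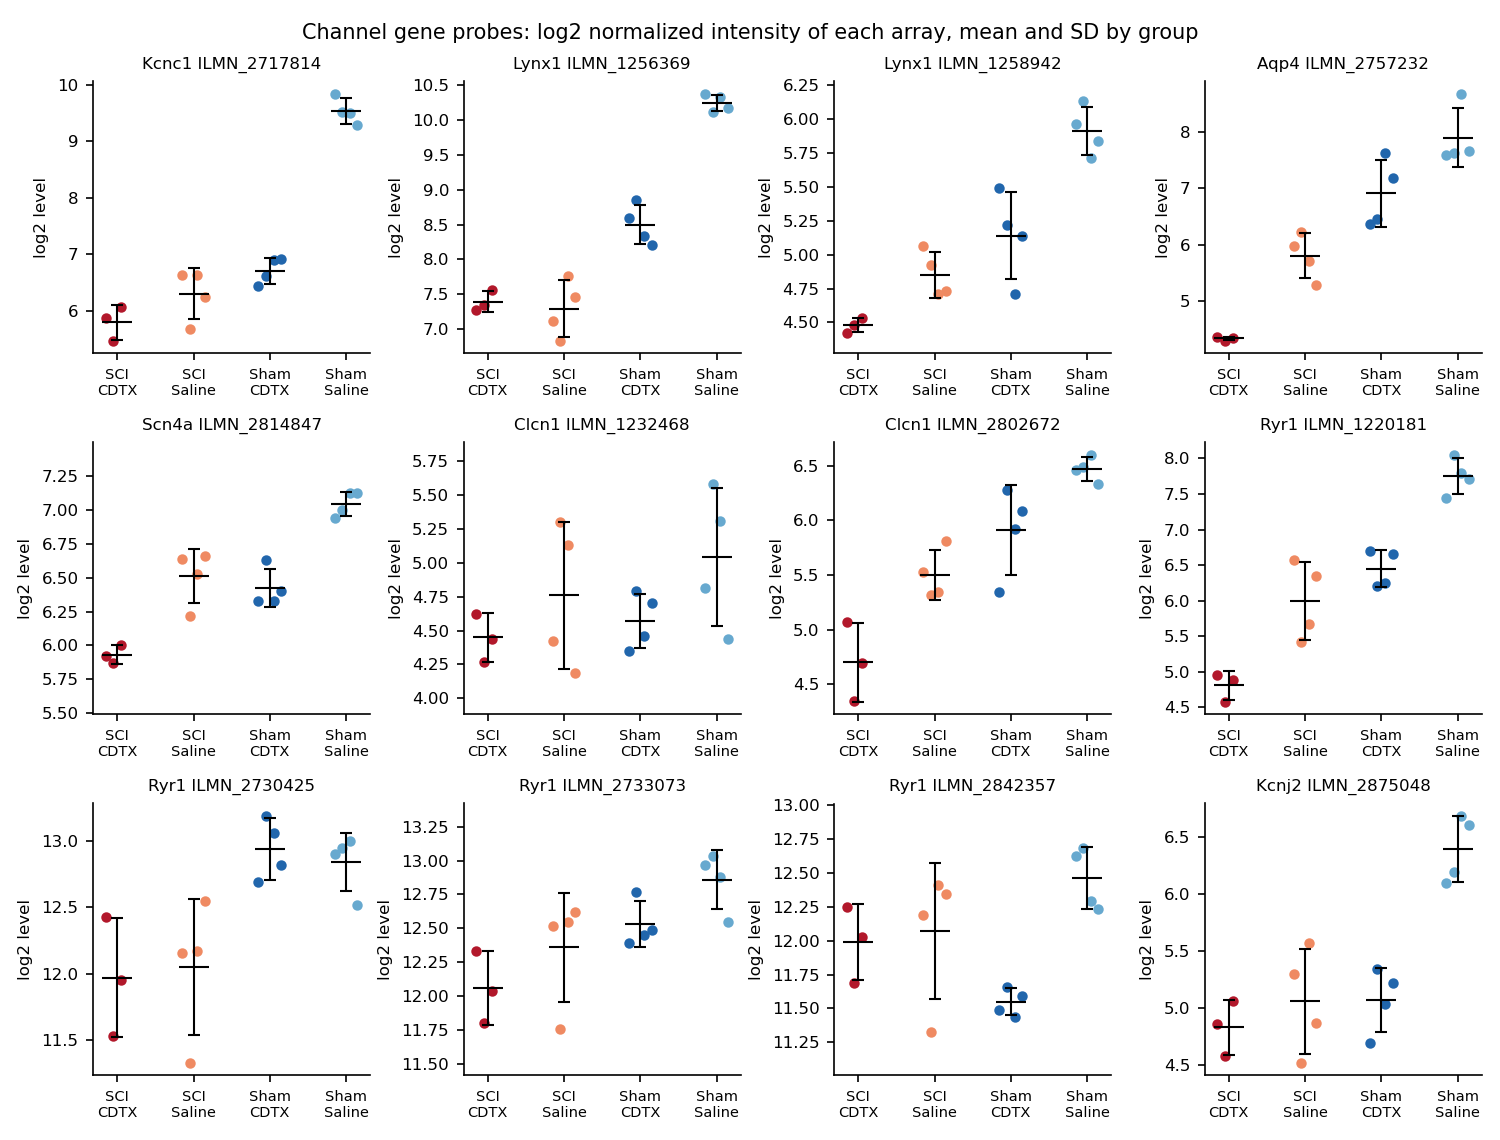
Log2 normalised intensity (vertical axis) of each of the 12 kept probes on the 15 arrays analysed, by group, with points for arrays and bars for mean and SD. Kcnc1 ILMN_2717814 lay at 9.29 to 9.84 in Sham+Saline and at 5.47 to 6.91 in the other groups.

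Lynx1 encodes a membrane-anchored prototoxin that binds nicotinic acetylcholine receptors and dampens their response. Probe ILMN_1256369 on chromosome 15 (band 15qD3) begins at base 3885 and was detected on all 16 arrays. Its log2 levels were 10.38, 10.12, 10.33 and 10.18 in Sham+Saline and 8.59, 8.85, 8.33 and 8.21 in Sham+CDTX. They were 7.12, 6.83, 7.76 and 7.46 in SCI+Saline and 7.27, 7.35 and 7.56 in SCI+CDTX. Lynx1 therefore formed 3 steps that did not overlap, with Sham+Saline highest, Sham+CDTX between, and both SCI groups lowest and overlapping each other. Relative to Sham+Saline the difference was -2.96 in SCI+Saline (7.76-fold lower), -1.75 in Sham+CDTX (3.37-fold) and -2.86 in SCI+CDTX (7.24-fold), with an interaction of 1.86. Between SCI+CDTX and SCI+Saline the difference was 0.1, and between SCI+CDTX and Sham+CDTX it was -1.1. With the array score as a covariate over 16 arrays, the difference between Sham+CDTX and Sham+Saline was -0.36, that between SCI+CDTX and Sham+CDTX was -2.17 and the interaction was 0.66, whereas with 16 arrays alone they were -1.75, -1.29 and 1.65. The other probe, ILMN_1258942 at base 18, was dim, with raw intensities of 105.5 to 131.8 in all groups. Its interaction was 0.39, and -0.19 under median scaling (0.05 from the median of all probes), so the probes of Lynx1 did not give the same interaction. Its group means ran from 5.91 ± 0.18 (SD, n = 4) in Sham+Saline to 4.48 ± 0.05 (SD, n = 3) in SCI+CDTX, where none of the 3 arrays kept detected it. Mean raw intensity was 125 in Sham+CDTX and 115 in Sham+Saline. The difference of this probe between these groups, -0.77, was -0.14 under median scaling, which is -0.46 from the median of all probes.

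Aqp4 encodes the water channel that the dystrophin complex holds at the surface of fast fibres. Probe ILMN_2757232 on chromosome 18 (band 18qA1) begins at base 1338. Its log2 levels were 7.6, 7.63, 8.68 and 7.67 in Sham+Saline and 6.36, 6.46, 7.62 and 7.18 in Sham+CDTX, and these groups overlapped by 1 array. They were 5.98, 6.22, 5.71 and 5.28 in SCI+Saline and 4.35, 4.29 and 4.34 in SCI+CDTX, where none of the 3 arrays was above background. SCI+CDTX was thus lowest without overlap, whereas it overlapped SCI+Saline by the Kcnc1 probe and by the brighter Lynx1 probe, though not by the dimmer Lynx1 probe. Raw intensities ran from 99.4 to 105.1 in SCI+CDTX and from 181 to 357.6 in Sham+Saline. The difference from Sham+Saline was -2.1 in SCI+Saline (4.29-fold lower) and -0.99 in Sham+CDTX (1.99-fold). The Sham+CDTX value was -0.21 under median scaling, which is -0.53 from the median of all probes, and -4.06 with the array score over 16 arrays. Mean raw intensities in these groups were 246 in Sham+CDTX and 239 in Sham+Saline. On the background-corrected scale SCI+CDTX was at least 10.4-fold lower than Sham+Saline, at least 2.42-fold lower than SCI+Saline and at least 5.23-fold lower than Sham+CDTX. These bounds set an undetected array at the higher of its own level and the dimmest detected probe. They depend on the background correction. Without it the log2 differences shrank to -1.7 from Sham+Saline, -0.48 from SCI+Saline and -1.05 from Sham+CDTX. The excluded SCI+CDTX array 2 went against its group, with a detected Aqp4 level of 6.37 and a raw intensity of 202.9. With that array included, SCI+CDTX lay -0.99 from SCI+Saline and -2.1 from Sham+CDTX, and with the array score as a covariate as well the second difference was -0.17.

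**Figure D2:**
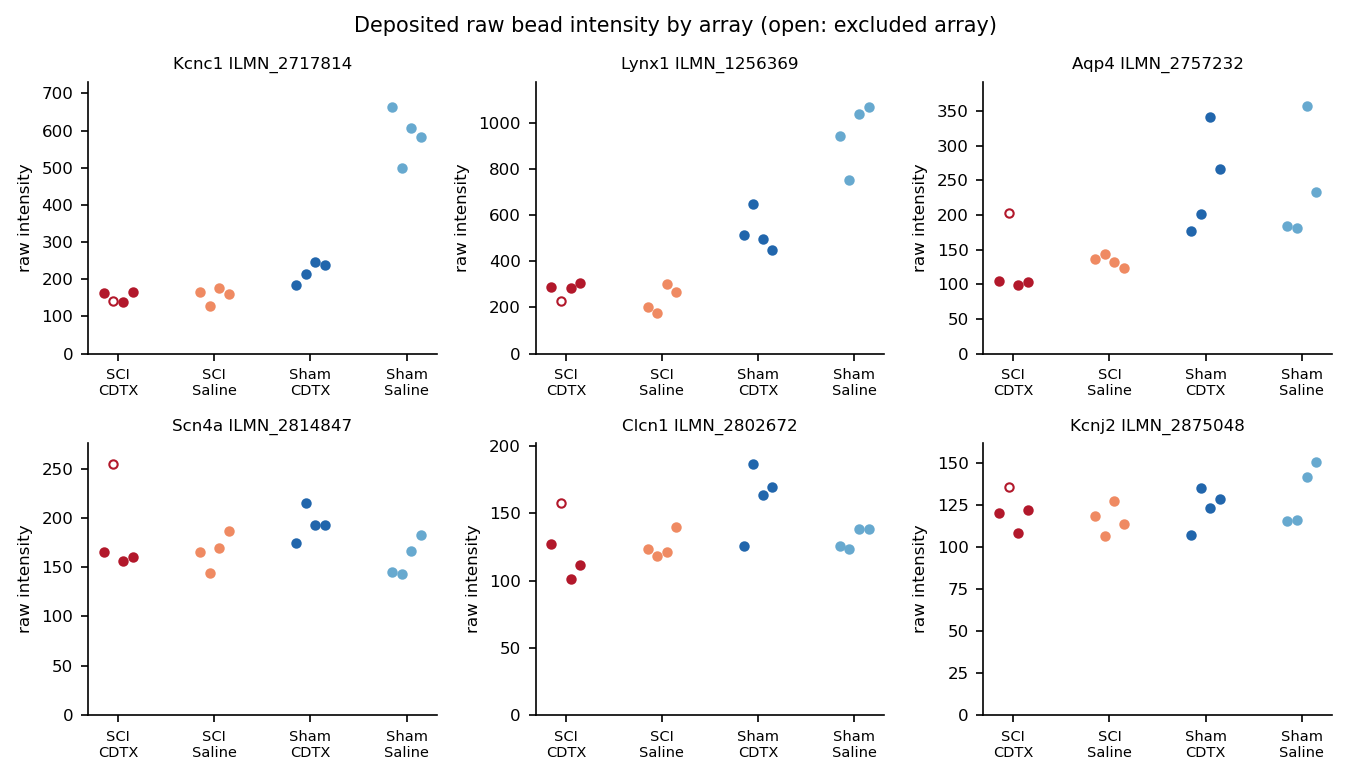
Raw bead intensity (vertical axis, arbitrary scanner units) of 6 member probes on all 16 arrays by group, with the excluded SCI+CDTX array 2 as an open point. Kcnc1 and Lynx1 were brightest in Sham+Saline, whose arrays were dimmer in their mean over all probes, whereas the Scn4a, Clcn1 and Kcnj2 ranges overlapped between groups.

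Scn4a encodes the voltage-gated sodium channel that carries the upstroke of the muscle action potential. Probe ILMN_2814847 on chromosome 11 (band 11qE1) begins at base 5729 and was detected on all 16 arrays. Its log2 levels were 6.94, 7, 7.12 and 7.12 in Sham+Saline and 6.33, 6.63, 6.33 and 6.4 in Sham+CDTX. They were 6.64, 6.22, 6.53 and 6.66 in SCI+Saline and 5.92, 5.87 and 6 in SCI+CDTX. The 3 SCI+CDTX arrays lay below every other array and the 4 Sham+Saline arrays above. Scn4a fell by 0.58 ± 0.14 (SE; 1.5-fold, 95% interval -0.88 to -0.28) in SCI+CDTX relative to SCI+Saline, with an adjusted p of 0.00275 in limma. Relative to Sham+CDTX the difference was -0.49 ± 0.14 (SE; -0.79 to -0.19) with a limma adjusted p of 0.0132. Both calls were lost when the excluded array, at 6.89, was included (-0.35, limma adjusted p = 0.151, and -0.26, limma adjusted p = 0.372). The first was also lost under median scaling (-0.2, limma adjusted p = 0.368), and the second without SCI+CDTX replicate 3 (-0.46, limma adjusted p = 0.0541). With the array score as a covariate over 16 arrays the second difference turned to 0.41. Raw intensities overlapped, at 142.8 to 182.2 in Sham+Saline and 156 to 165.1 in SCI+CDTX. The difference between Sham+CDTX and Sham+Saline was -0.62 after quantile normalisation but 0.21 after median scaling, a setting that moved the median of all probes in that comparison from -0.04 to 0.32, so that Scn4a lay -0.11 from the new median.

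Clcn1 encodes the chloride channel that carries most of the resting chloride conductance of the fibre. The brighter of its probes, ILMN_2802672 on chromosome 6 (band 6qB2.1), begins at base 3105 and was detected on 15 of 16 arrays. Its log2 levels were 6.46, 6.49, 6.6 and 6.33 in Sham+Saline and 5.34, 6.28, 5.92 and 6.09 in Sham+CDTX. They were 5.53, 5.32, 5.34 and 5.81 in SCI+Saline and 5.07, 4.35 and 4.69 in SCI+CDTX, where every array lay below all others. Clcn1 fell by 0.8 ± 0.21 (SE; 1.74-fold, 95% interval -1.23 to -0.36) in SCI+CDTX relative to SCI+Saline (limma adjusted p = 0.00438). Relative to Sham+CDTX it fell by 1.2 ± 0.21 (SE; 2.31-fold, 95% interval -1.64 to -0.77; limma adjusted p = 0.000242). The first call was lost with all 16 arrays (-0.57, limma adjusted p = 0.0701) and under median scaling (-0.61, limma adjusted p = 0.0514), the second with the array score as a covariate over 16 arrays (-0.19, limma adjusted p = 0.881). The difference of Sham+CDTX from Sham+Saline, -0.56, was 0.23 under median scaling, which is -0.09 from the median of all probes, and raw intensities of 125.8 to 186.7 and 123.6 to 138.4 overlapped. The other probe, ILMN_1232468 at base 2765, was detected on 9 of 16 arrays. It differed by -0.31 (95% interval -0.87 to 0.25; limma adjusted p = 0.376) from SCI+Saline and by -0.13 (-0.68 to 0.43; limma adjusted p = 0.786) from Sham+CDTX, so the probes of Clcn1 did not give the same call.

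Of the 9 genes, Clcn1 was the one whose RefSeq promoter window held a match to the MEF2 motif, among the 7 genes for which a window was searched. MEF2 factors switch on many genes of the contractile fibre. The sequence before the start of the listed Clcn1 transcript, chr6:42286435-42286684 (GRCm38.p6, plus strand), lies inside a longer annotated form of the gene. Capitals mark the MEF2 match and the 3 CANNTG hexamers, the core bound by myogenic factors.
Clcn1: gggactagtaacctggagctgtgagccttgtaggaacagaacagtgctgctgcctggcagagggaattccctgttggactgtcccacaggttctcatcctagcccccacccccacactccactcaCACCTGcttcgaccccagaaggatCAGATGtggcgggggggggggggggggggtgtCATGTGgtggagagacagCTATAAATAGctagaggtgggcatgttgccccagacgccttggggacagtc
The MEF2 match begins 51 bases before the start, and the nearest CANNTG 69 bases before. Of 32851 RefSeq windows of 250 bases, 2.92% held a MEF2 match and 66.2% a CANNTG on either strand, so the hexamer is common. The matches describe letters in this window and not binding.

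Kcnj2 encodes an inward rectifier potassium channel that sets the resting potential. Probe ILMN_2875048 on chromosome 11 (band 11qE2) begins at base 3795 and was detected on 15 of 16 arrays. Its log2 levels were 6.1, 6.2, 6.69 and 6.61 in Sham+Saline, 4.69, 5.34, 5.04 and 5.22 in Sham+CDTX, 5.3, 4.52, 5.57 and 4.87 in SCI+Saline, and 4.86, 4.58 and 5.06 in SCI+CDTX. Sham+Saline lay above the other 3 groups, which overlapped. The differences from Sham+Saline were -1.57 in SCI+CDTX and -1.33 in each of SCI+Saline and Sham+CDTX, with an interaction of 1.09, which was 0.57 under median scaling. As with Kcnc1, the 2 single falls, if added, would pass below the levels of undetected probes, so the positive sign of this interaction was fixed. Raw intensities were close to background and overlapped, at 115.5 to 150.4 in Sham+Saline and 106.2 to 135 elsewhere. Between SCI+CDTX and SCI+Saline the difference was -0.23 (95% interval -0.72 to 0.25; limma adjusted p = 0.446), and between SCI+CDTX and Sham+CDTX it was -0.24 (-0.72 to 0.24; limma adjusted p = 0.493). Kcnn3 was not measurable: its probe, ILMN_2612915 on chromosome 3, was detected on none of the 16 arrays, with raw intensities of 90.7 to 108.1.

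Ryr1, the calcium release channel of the sarcoplasmic reticulum, was read by 4 probes on chromosome 7 (band 7qB1), 1 near the 5′ end and 3 near the 3′ end of a very long transcript. The probes are shown because their group patterns differed. The 3 printed here lie in coding sequence or reach its end, and the capitals mark a TGA triplet at base 46 of the last.
ILMN_1220181, first base 224: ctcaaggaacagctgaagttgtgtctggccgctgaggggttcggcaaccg
ILMN_2730425, first base 15020: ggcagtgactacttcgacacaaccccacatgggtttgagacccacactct
ILMN_2733073, first base 15197: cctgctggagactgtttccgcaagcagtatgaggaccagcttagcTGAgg
The fourth probe, ILMN_2842357, begins at base 15300 of an earlier version of the transcript and holds AATAAA, the letters of the usual polyadenylation signal, as do 1.45% of the kept probes.

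The 5′ probe of Ryr1, ILMN_1220181, was lowest in SCI+CDTX. Its log2 levels were 7.45, 8.05, 7.79 and 7.71 in Sham+Saline and 6.7, 6.21, 6.25 and 6.65 in Sham+CDTX. They were 6.57, 5.42, 5.67 and 6.35 in SCI+Saline and 4.95, 4.58 and 4.89 in SCI+CDTX. Sham+Saline lay above all other arrays and SCI+CDTX below all others, with the remaining groups overlapping between them. It fell by 1.2 ± 0.24 (SE; 2.29-fold, 95% interval -1.69 to -0.7) relative to SCI+Saline, with a limma adjusted p of 0.000494. Relative to Sham+CDTX it fell by 1.65 ± 0.24 (SE; 3.13-fold, 95% interval -2.14 to -1.15), with a limma adjusted p of 4.36e-05. The first call held with all 16 arrays (-0.93, limma adjusted p = 0.014), and the second was lost with the array score as a covariate over 16 arrays (-0.55, limma adjusted p = 0.632). Raw intensities were 108.3 to 122.5 in SCI+CDTX, near background, 120.2 to 166.6 in SCI+Saline, 181.2 to 212.3 in Sham+CDTX and 172.9 to 237 in Sham+Saline. Without background correction the 2 differences shrank to -0.43 and -0.63 (limma adjusted p = 0.0116 and 0.00148).

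The 3′ probes of Ryr1 were among the brightest on the array, at the percentiles 98.6 to 99.1 of kept probes, and each gave its own order of groups. ILMN_2730425 had group means of 12.84 ± 0.22, 12.94 ± 0.23, 12.05 ± 0.51 (SD, n = 4 each) and 11.97 ± 0.45 (SD, n = 3) in Sham+Saline, Sham+CDTX, SCI+Saline and SCI+CDTX respectively. The means of ILMN_2733073 in that order were 12.86 ± 0.22, 12.53 ± 0.17, 12.36 ± 0.4 and 12.06 ± 0.27, and those of ILMN_2842357 were 12.46 ± 0.23, 11.55 ± 0.1, 12.07 ± 0.5 and 11.99 ± 0.28. Sham+CDTX was thus highest by the first of these probes and lowest by the last, although both lie near the 3′ end. Between SCI+CDTX and Sham+CDTX, ILMN_2730425 fell by 0.97 ± 0.24 (SE; 1.96-fold; limma adjusted p = 0.00546), a call lost with all 16 arrays (-0.69, limma adjusted p = 0.0941) and with the array score over 16 arrays (-0.01, limma adjusted p = 0.995). ILMN_2733073 differed by -0.47 (95% interval -0.89 to -0.05; limma adjusted p = 0.0903) and ILMN_2842357 by 0.44 (-0.01 to 0.9; limma adjusted p = 0.142). Without SCI+Saline replicate 2, which stood apart from its group, these 2 differences passed (limma adjusted p = 0.0335 and 0.0426). Between SCI+CDTX and SCI+Saline no 3′ probe passed, at -0.08, -0.3 and -0.08 (limma adjusted p = 0.82, 0.241 and 0.809), although ILMN_2733073 did without SCI+Saline replicate 2 (-0.51, limma adjusted p = 0.0256) and under median scaling (-0.65, limma adjusted p = 0.00691).

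The difference between ILMN_2730425 and ILMN_2842357 within an array shows this disagreement directly. It was 1.2 to 1.63 in Sham+CDTX, 0.27 to 0.71 in Sham+Saline, -0.24 to 0.2 in SCI+Saline and -0.16 to 0.18 in SCI+CDTX. In the excluded SCI+CDTX array 2 it was 1.02, away from its group and nearer to Sham+CDTX. The array score, built from other genes, ran the same way in Sham+CDTX and in the excluded array. The part of the score in the Ryr1 result was not tested, as the fits with it as a covariate cannot separate it from Sham+CDTX.

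**Figure D3:**
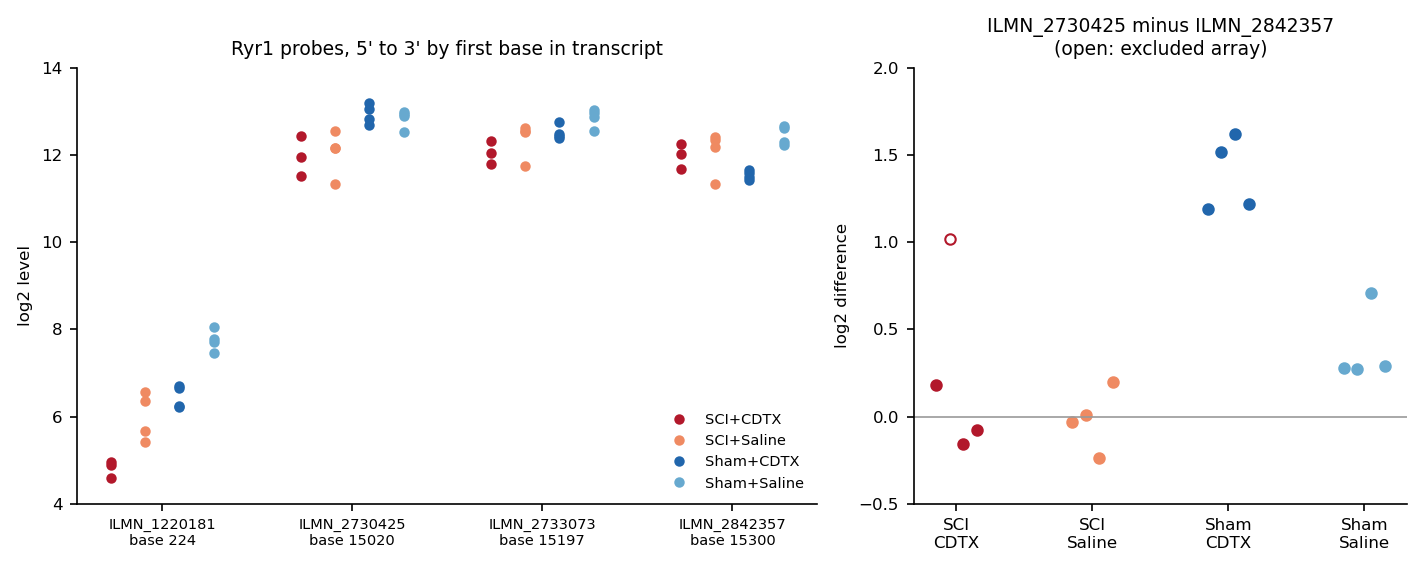
Left, log2 normalised intensity (vertical axis) of the 4 Ryr1 probes in order of their first base (horizontal axis) on each of the 15 arrays; right, ILMN_2730425 minus ILMN_2842357 on the log2 scale per array, with the excluded array as an open point at 1.02. Sham+CDTX arrays lay at 1.2 to 1.63 on the right and the other arrays kept at or below 0.71.

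Across the 12 kept probes, none was called higher in any of the 5 group comparisons. The list was drawn up around lower levels relative to Sham+Saline, so nothing is read from this beside the shares that follow. Of all kept probes, 20.4% were called higher in SCI+CDTX relative to SCI+Saline, 14.9% relative to Sham+CDTX and 23% relative to Sham+Saline. The share called higher relative to Sham+Saline was 14.8% in SCI+Saline and 23.1% in Sham+CDTX. In SCI+CDTX relative to SCI+Saline, 4 of the 12 kept probes were called lower, where 22.5% of all kept probes were, and 1 of the 4 was Aqp4. Relative to Sham+CDTX, 8 were called lower where 14.9% of all kept probes were, and 4 of these 8 were the Kcnc1, Lynx1 and Aqp4 probes. Since those genes made the choice, nothing is read from either number beside the share of all probes. With all 16 arrays the numbers were 2 and 6, and with the array score added to those 16 arrays they were 4 and 2. Over all kept probes, calls in either direction were 5255 and 2613 with 16 arrays, and 6115 and 262 with the score added. Against Sham+Saline, the contrast behind the choice of genes, 10 were called lower in SCI+CDTX (23.6% of all kept probes), 9 in Sham+CDTX (25.8%) and 9 in SCI+Saline (14.6%), and nothing is read from these. For the interaction 3 were called higher and none lower, where 12% and 11.6% of all kept probes were, and nothing is read from this either, as 2 of the 3 were Kcnc1 and Lynx1. The number in Sham+CDTX relative to Sham+Saline was 4 under median scaling, 7 with all 16 arrays and 5 with the array score added to those. Over all kept probes it was 7877, 6594 and 3093, beside 7219 in the main fit.

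**Figure D4:**
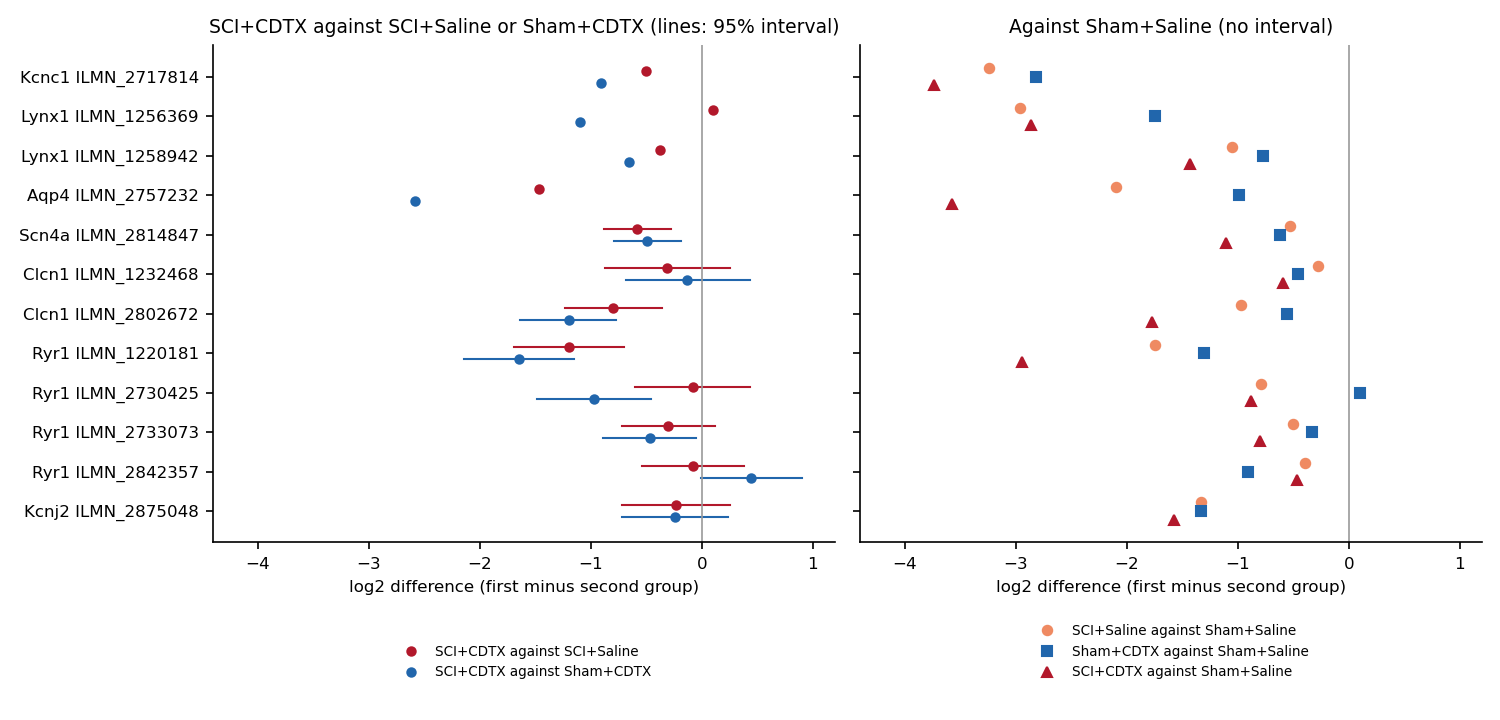
Log2 difference (horizontal axis) of each kept probe: left, SCI+CDTX relative to SCI+Saline and to Sham+CDTX with 95% intervals for Scn4a, Clcn1, Ryr1 and Kcnj2; right, the 3 other groups relative to Sham+Saline without intervals. Kcnc1 lay at -3.74 to -2.82 on the right, and at -0.91 and -0.5 on the left.

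In the authors' deposited table of group means over the 15 arrays, the normalised intensity of Kcnc1 was 663.7 in Sham+Saline, 108.6 in Sham+CDTX, 52.4 in SCI+Saline and 50.4 in SCI+CDTX. In that order of groups, the authors' deposited table gave Lynx1 as 1138.3, 384.8, 126.4 and 179.9, and Aqp4 as 192.7, 132.1, 30.6 and 2. The authors' deposited table gave Kcnj2 as 50.9, 22.5, 14.3 and 15.4. Sham+Saline was highest for these 4 genes. By Clcn1 ILMN_2802672 the authors' deposited table put Sham+CDTX (56.6) above Sham+Saline (52.9), SCI+Saline (23.2) and SCI+CDTX (12). For Scn4a the authors' deposited table gave 88.3 in Sham+Saline, 85.5 in Sham+CDTX, 61.1 in SCI+Saline and 56.1 in SCI+CDTX.

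The genes whose levels ran most like those of Kcnc1 over the 15 arrays were Fitm2 (r = 0.979), Rab28 (0.975), Abhd18 (0.974), Rcan2 (0.973) and Fut10 (0.972). For Lynx1 they were Rcan2 (r = 0.979), Map2k6 (0.972), Tmem25 (0.971), Itgb6 (0.97) and Scin (0.968), so Rcan2 stood near both. For Aqp4 they were Serpine2 (r = 0.984), Trmt2b (0.966), Ppargc1b and Arhgap20 (0.965 each) and Sdhb (0.959). Kcnc1 and Lynx1 had r = 0.94 with each other, Kcnc1 and Aqp4 0.81, and Lynx1 and Aqp4 0.8. These are descriptions over arrays that share 4 groups and 2 slides.

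Lists of other genes of each pathway, none of them a member, were read from the brightest kept probe of each gene. Among the excitation-contraction coupling genes, 36 of 49 were kept, and 15 fell and 5 rose in SCI+CDTX relative to SCI+Saline, where 22.2% of all genes fell and 22.1% rose. Cacna2d1, the accessory subunit that accompanies the voltage sensor, fell by 2.14 ± 0.31 (SE; limma adjusted p = 2.94e-05). Relative to Sham+CDTX, 11 fell and 3 rose (15.8% and 16.4% of all genes), and Tmem38a, a counter-ion channel of the reticulum, fell by 1.44 (limma adjusted p = 8.94e-06). In SCI+Saline relative to Sham+Saline, 17 fell and 4 rose (15.8% and 14.7%). There the calcium buffer Casq1 fell by 2.19 ± 0.25 (SE; limma adjusted p = 2.47e-06), and Sln, which inhibits the calcium pump, rose by 2.33 ± 0.34 (SE; limma adjusted p = 4.83e-05). In Sham+CDTX relative to Sham+Saline, 15 fell and 3 rose (26.9% and 23.7%).

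Of 72 other potassium channel genes, 32 were kept. In SCI+CDTX, 8 fell and 4 rose relative to SCI+Saline, and 6 fell and 2 rose relative to Sham+CDTX. The shares that fell, 25% and 18.8%, lay near the 22.2% and 15.8% of all genes. Kcnab2, a beta subunit, rose by 3.46 ± 0.38 (SE; limma adjusted p = 2.31e-06) relative to SCI+Saline, and Kcnn4, a calcium-activated channel of blood and immune cells, rose by 1.88 (limma adjusted p = 4.54e-07). Kcna7, a muscle voltage-gated channel, fell by 1.9 relative to Sham+CDTX (limma adjusted p = 3.33e-05) and by 2.44 ± 0.25 in SCI+Saline relative to Sham+Saline (limma adjusted p = 7.28e-07). In that last comparison 10 fell and 2 rose, and in Sham+CDTX relative to Sham+Saline 13 fell and 4 rose. The shares that fell were 31.2% and 40.6%, beside 15.8% and 26.9% of all genes. The shares over all genes given for the coupling list apply to the smaller lists that follow, in which 1 gene is a large share.

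Of 13 other sodium channel genes, 5 were kept, and 1 fell in each of the 4 comparisons. In SCI+Saline relative to Sham+Saline 1 of the list also rose. Scn4b, a beta subunit, fell by 2.57 ± 0.21 in SCI+Saline relative to Sham+Saline (SE; limma adjusted p = 5.87e-08) and by 1.95 ± 0.23 in SCI+CDTX relative to Sham+CDTX (SE; limma adjusted p = 5.51e-06). Of 31 chloride and volume regulation genes, 14 were kept, with 4 lower and 6 higher in SCI+CDTX relative to SCI+Saline, and 3 and 3 relative to Sham+CDTX. In Sham+CDTX relative to Sham+Saline, where 5 fell and 7 rose, Clic1, widely expressed in other cell types, rose by 2.4 (limma adjusted p = 1.66e-07). In SCI+Saline relative to Sham+Saline 4 fell and 3 rose, and Ttyh1 rose by 2.6 ± 0.19 (SE; limma adjusted p = 1.06e-08).

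Of 13 sodium-potassium pump genes, 10 were kept, with 2 lower and 3 higher in SCI+CDTX relative to SCI+Saline and 4 and 1 relative to Sham+CDTX. The pump's beta subunit Atp1b2 fell by 2.62 ± 0.24 in the second comparison (SE; limma adjusted p = 4.81e-07), and Atp1b1 fell by 2.05 ± 0.18 in SCI+Saline relative to Sham+Saline (SE; limma adjusted p = 1.79e-07), where 3 fell and none rose. In Sham+CDTX relative to Sham+Saline 4 fell and 4 rose. Of 28 genes of water channels and the dystrophin complex, 19 were kept. In SCI+CDTX 6 fell and 2 rose relative to SCI+Saline, and 4 and 2 relative to Sham+CDTX. Aqp1, the water channel of capillary endothelium, rose by 1.09 in SCI+CDTX relative to Sham+CDTX, in which it had fallen by 1.23 relative to Sham+Saline (limma adjusted p = 6.23e-06). Aqp4 was also lower in the last comparison (-0.99), but by -0.21 under median scaling, and those groups overlapped. Unlike Aqp1, Aqp4 was lower in SCI+CDTX than in Sham+CDTX. That difference was -2.1 with all 16 arrays and -0.17 with the array score added. In SCI+Saline relative to Sham+Saline 3 of this list fell and 1 rose, and in Sham+CDTX 8 fell and 1 rose.

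Of 30 prototoxin and nicotinic receptor genes, 11 were kept. In SCI+Saline relative to Sham+Saline 1 fell and 5 rose, with Chrna9 up by 4.4 ± 0.25 (SE; limma adjusted p = 4.21e-10), the fetal subunit Chrng up by 3.05 (limma adjusted p = 1.44e-07) and Chrna1 up by 2.35 (limma adjusted p = 2.27e-09). In Sham+CDTX relative to Sham+Saline 1 fell and 4 rose, with Chrng up by 2.51 and Chrna1 by 1.43. Chrna9 fell by 2.17 in SCI+CDTX relative to SCI+Saline, where 3 of the list fell and 1 rose. Relative to Sham+CDTX 1 fell and 3 rose.

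**Figure D5:**
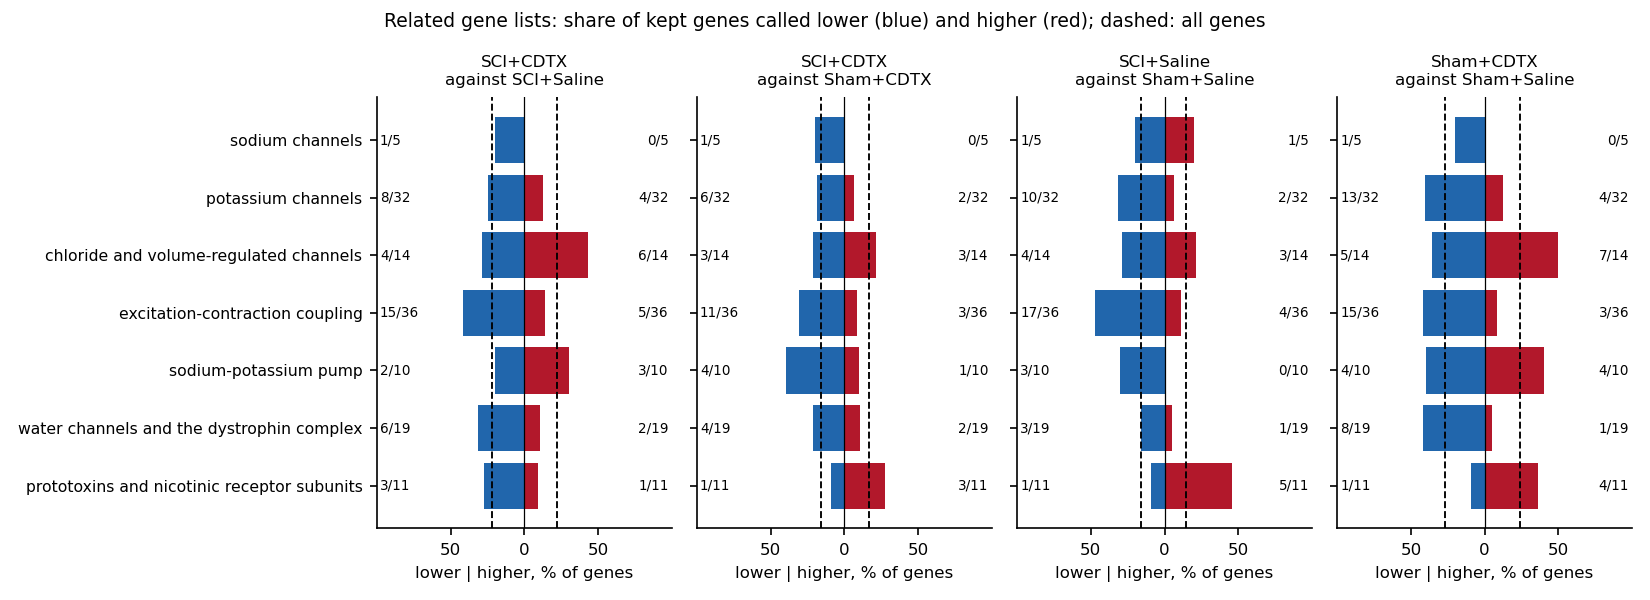
Percent of kept genes called lower and higher (horizontal axis) in 7 lists of related genes in each of 4 comparisons, with dashed lines for all genes. The excitation-contraction coupling list had 15 of 36 lower and 5 of 36 higher in SCI+CDTX relative to SCI+Saline.

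Cell type markers moved alongside these groups. The mean log2 level of 24 kept muscle fibre markers of 25 was 12.8 to 12.91 in Sham+Saline, 12.32 to 12.61 in Sham+CDTX, 12.34 to 12.61 in SCI+Saline and 11.84 to 12.31 in SCI+CDTX, so the tissue carried its muscle label in every array. Of these 24 markers, 11 fell and 1 rose in SCI+CDTX relative to SCI+Saline and 11 fell and none rose relative to Sham+CDTX, a share of 45.8% lower beside 22.2% and 15.8% of all genes. Relative to Sham+Saline, 6 fell and none rose in SCI+Saline, and 9 fell and 3 rose in Sham+CDTX. Acta1 and Ckm, very abundant fibre transcripts, had group means of 13.77 to 13.9 and 13.88 to 14.09. Myh2, a fast oxidative myosin, went from 13.3 in Sham+Saline to 12.36 in Sham+CDTX, 11.46 in SCI+Saline and 10.82 in SCI+CDTX. The 11 kept macrophage markers of 14 averaged 9.02 to 9.61 in SCI+CDTX and 9.15 to 9.32 in Sham+CDTX, against 6.08 to 7.72 in SCI+Saline and 6.02 to 6.66 in Sham+Saline. The 11 kept endothelial markers of 12 averaged 7.71 to 8.02 in Sham+Saline, 7.15 to 7.27 in Sham+CDTX, 6.9 to 7.36 in SCI+Saline and 7.52 to 7.79 in SCI+CDTX, so they too were highest in Sham+Saline by group mean. Relative to Sham+Saline, 9 of these 11 fell and none rose in SCI+Saline, and 6 fell and 1 rose in Sham+CDTX. The 12 fibroadipogenic progenitor markers averaged 8.89 to 9.78 in Sham+Saline, 9.76 to 9.88 in Sham+CDTX, 8.35 to 8.85 in SCI+Saline and 9.39 to 9.7 in SCI+CDTX. The neutrophil markers, 8 of 12 kept, stood apart in Sham+Saline array 4 (8.76) and SCI+Saline array 4 (8.75), against 4.45 to 6.97 on the other 13 arrays. The Schwann cell and nerve markers, 7 of 12 kept, averaged 7.28 to 7.7 in SCI+CDTX, 7.09 to 7.97 in SCI+Saline, 7.16 to 8.32 in Sham+CDTX and 7.79 to 8.3 in Sham+Saline. The part of fibre loss or of other cells in the channel gene differences was not tested.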

How the data were processed

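RNA of 16 muscle samples was hybridised to single-colour Illumina bead arrays. The deposited table holds each probe's mean bead intensity without normalisation and its detection p-value, as the authors exported them from GenomeStudio (2011.1 per the submitters' processing notes; module 1.9.0 per the file headers). The authors' 2 other deposited tables hold group means of normalised intensity over 16 and 15 arrays. The build behind the array's probe positions is not given in the sources used here, so probes are placed by band and by base in the listed transcript.

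From the 15 arrays of the authors' final analysis, intensities were background corrected by normexp with the detection p-values, raised by 16, quantile normalised and put on the log2 scale (limma 3.58.1, R 4.3.3). A probe was kept if its detection p-value was below 0.05 on 3 or more arrays. A group-means model was fitted over all 14763 kept probes with limma (lmFit, contrasts.fit, eBayes). Adjusted p-values are Benjamini-Hochberg over all of them, called at 0.05. Where a probe was undetected in a whole group, the fold is a lower bound on the background-corrected scale only. The procedure was tested on simulated data. No column of sample values went unused (0). Symbols of 23681 probes were matched to RefSeq by Entrez number.

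The members and gene lists were chosen with earlier results of these data known. All kept member probes are named. From each related list, the rule allowed the 4 highest and 4 lowest called genes with groups that do not overlap in each of 4 comparisons, and for Kcnc1, Lynx1 and Aqp4 the 5 most correlated genes. Alternatives covered the excluded array, median scaling, background, filter, variance model, array score, replicate block and leaving out each array. No set test was run. The number of arrays limits the precision.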

Additional observations from a re-analysis of the deposited data

Results flagged for a closer look

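Among 48 sets of 4 arrays and 1 probe, 4 held an array whose gap to the nearest other exceeded Dixon's 95% critical share of the range; chance gives about 1 in 20. SCI+CDTX array 2 stood apart for Aqp4 (0.97 of the range, 6.37 against 4.3 to 4.36) and for Scn4a (0.86, 6.89 against 5.9 to 6.04). Sham+Saline array 3 stood apart for Aqp4 (0.93, 8.68 against 7.6 to 7.67). SCI+Saline array 2 stood apart for Ryr1 ILMN_2733073 (0.89, 11.76 against 12.52 to 12.62). The interaction was 2.32 on the log2 scale for Kcnc1, 1.86 for Lynx1 ILMN_1256369 and 1.09 for Kcnj2, where 12% of all kept probes had a higher interaction call. By the other Lynx1 probe, ILMN_1258942, it was 0.39 and was not called. Kcnc1 and Lynx1 were part of the choice. For Kcnc1 and Kcnj2 the 2 single falls, if added, would pass below the levels of undetected probes. The positive sign was there fixed by the floor of the scale, so no differing effect of cardiotoxin is read from it. The Kcnj2 value was 0.57 under median scaling and 0.98 without SCI+CDTX replicate 4, and was called under neither.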

How the results depend on the processing

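Calls depended most on the excluded array, the between-array scaling and the array score. The fits with the score rest mostly on the excluded array and cannot separate the score from Sham+CDTX, so a call lost there decides nothing. Of the 12 kept probes, the number called in SCI+CDTX relative to SCI+Saline went from 4 to 2 with all 16 arrays. The number over all kept probes went from 6338 to 5255. Of those 4 calls only that of the 5′ Ryr1 probe was kept. The Aqp4, Scn4a and Clcn1 calls were lost, and the Kcnc1 probe (-0.63) was newly called. In Sham+CDTX relative to Sham+Saline the number went from 9 to 4 under median scaling, whereas over all kept probes it went from 7219 to 7877. Adding the excluded array gave 7 in that comparison, 6 (from 8) in SCI+CDTX relative to Sham+CDTX and 3 (from 3) in the interaction; adding the score to those 16 arrays gave 5, 2 and 0. Over all kept probes limma called 7219, 4393 and 3483 in these comparisons with 15 arrays, 6594, 2613 and 1532 with 16 arrays, and 3093, 262 and 44 with 16 arrays and the score. Under median scaling the interaction still had 3 calls (4743 over all kept probes), but Aqp4 (-1.16) was called and Kcnj2 (0.57) was not. Reversed values were, for Sham+CDTX relative to Sham+Saline, Scn4a 0.21 and Clcn1 ILMN_2802672 0.23 under median scaling and Clcn1 0.1 in both of the authors' deposited tables; for Scn4a they were 0.41 in SCI+CDTX relative to Sham+CDTX with the score and 0.23 relative to SCI+Saline in the authors' deposited table of 16 arrays. The cause was not tested. Without 1 array at a time, the numbers called ran from 4 to 6 (SCI+CDTX relative to SCI+Saline), 7 to 10 (to Sham+CDTX), 9 to 11 (to Sham+Saline), 8 to 10 (SCI+Saline and Sham+CDTX relative to Sham+Saline) and 2 to 4 (interaction). In the same order, calls over all kept probes ran from 4719 to 6662, 3192 to 4572 and 5653 to 7029. They ran from 3661 to 4500 and from 6473 to 7387 in SCI+Saline and Sham+CDTX relative to Sham+Saline. For the interaction they ran from 2753 to 3846. Without any filter, all 72 single-probe values kept direction and call. Arrays of the same number in different groups showed no general pairing: the correlation of their deviations ran from -0.27 to 0.38 over 21 pairs, with a median of -0.02. It was over 0.1 in 3 of the pairs, so pairing of some arrays stays unresolved. With the replicate block the numbers called were 5, 8, 9, 9, 10 and 3 beside 4, 8, 9, 9, 10 and 3. Over all kept probes they were 5842, 4034, 4215, 7073, 6555 and 3179 beside 6338, 4393, 4350, 7219, 6868 and 3483. Dim probes, such as those of Kcnj2 and Clcn1 and the dimmer Lynx1 probe, lay near background in raw intensity, which limits their values. The Aqp4 probe and the 5′ Ryr1 probe did so in SCI+CDTX, and their falls there shrank without background correction.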
